A study of Mus musculus with 26 samples.

Results

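The genes described here are 35 genes of white and brown adipocytes, read in artery preparations that carry perivascular fat transcripts. They were chosen by name: markers of brown and thermogenic adipocytes, adipokines, lipid droplet proteins, and genes of fatty acid uptake, lipolysis, fatty acid synthesis, triglyceride synthesis and adipocyte transcription. All 35 were present among the 55416 gene identifiers of the aortic count tables and the 55414 of the mesenteric ones. The data were 26 RNA sequencing libraries of aorta and of mesenteric arteries from male C57BL6J mice, 13 of each tissue, in 6 groups. The labels do not state whether the same mice gave both tissues, so libraries of the 2 tissues were treated as independent, and p-values between tissues rest on that. Control mice, called WT below, were Sphk1 flox/flox without Cre. Knockout mice, called KO below, were Sphk1f/fTagln-cre+, in which Cre is driven by the Tagln promoter of smooth muscle. Per tissue, 4 libraries came from sham-treated WT animals, 4 from WT animals infused with angiotensin II (AngII) and 5 from KO animals infused with it. AngII was delivered at 490 ng/kg/min for 14 days by osmotic minipump, starting at 12 to 14 weeks of age, and all 6 groups carry the floxed Sphk1 alleles. The labels do not describe the sham treatment, no sham KO group was analysed here, and the labels do not say whether perivascular fat was kept or stripped at dissection.

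Adipocytes store triglyceride in lipid droplets and secrete adipokines such as adiponectin and leptin. Brown adipocytes hold many mitochondria and make uncoupling protein 1 (Ucp1), which lets protons return across the inner mitochondrial membrane and so releases the energy of fatty acid oxidation as heat. In mice, the fat around the thoracic aorta is known to resemble brown fat and the fat of the mesentery to resemble white fat. Both fat types share a core programme, run by the transcription factors Pparg and Cebpa, for taking up, making, storing and releasing fatty acids. In whole vessels, fewer adipocytes in a sample and less RNA per adipocyte cannot be told apart.

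The results turn on brown genes that are read in the aorta and nearly absent in the mesentery, and on adipokines that are read in both, so the 250 bases before the transcription start are shown for 3 of the former and 2 of the latter. They were taken from RefSeq on GRCm38.p6, which is not the build of the count tables, for the 26 of 35 genes that matched. Capitals mark matches to AGGTCA, the nuclear receptor core motif, TGACG, the core of the cyclic AMP response element, and TTGCNNAA, a C/EBP-type site, on either strand.
Ucp1 (chr8:83290098-83290347, plus strand, brown uncoupling protein): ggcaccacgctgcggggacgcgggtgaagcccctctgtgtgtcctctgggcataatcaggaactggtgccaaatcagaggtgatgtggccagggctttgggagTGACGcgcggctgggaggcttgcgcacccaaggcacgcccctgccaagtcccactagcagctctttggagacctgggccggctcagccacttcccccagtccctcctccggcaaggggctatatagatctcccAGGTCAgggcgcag
Cox8b (chr7:140900447-140900696, minus strand, mitochondrial respiratory subunit): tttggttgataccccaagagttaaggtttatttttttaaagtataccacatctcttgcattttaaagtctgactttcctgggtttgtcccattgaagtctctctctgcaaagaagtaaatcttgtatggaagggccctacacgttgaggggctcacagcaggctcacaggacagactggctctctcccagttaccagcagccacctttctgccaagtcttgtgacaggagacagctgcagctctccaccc
Otop1 (chr5:38277154-38277403, plus strand, proton channel): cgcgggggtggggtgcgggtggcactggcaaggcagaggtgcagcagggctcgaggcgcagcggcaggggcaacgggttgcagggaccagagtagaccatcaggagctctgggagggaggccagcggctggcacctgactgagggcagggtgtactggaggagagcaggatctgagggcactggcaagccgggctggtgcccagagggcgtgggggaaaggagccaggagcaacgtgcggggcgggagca
Adipoq (chr16:23146286-23146535, plus strand, adiponectin): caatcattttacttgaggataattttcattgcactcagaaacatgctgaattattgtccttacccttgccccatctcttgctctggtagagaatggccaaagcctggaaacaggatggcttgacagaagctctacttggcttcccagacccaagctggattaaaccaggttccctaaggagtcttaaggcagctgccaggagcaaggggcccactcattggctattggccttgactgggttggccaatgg
Lep (chr6:29059971-29060220, plus strand, leptin): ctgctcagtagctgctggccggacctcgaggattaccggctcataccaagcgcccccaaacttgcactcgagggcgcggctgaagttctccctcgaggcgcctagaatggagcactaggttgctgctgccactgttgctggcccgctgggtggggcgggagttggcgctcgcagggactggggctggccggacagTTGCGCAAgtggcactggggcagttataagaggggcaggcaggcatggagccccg
The Ucp1 window held TGACG from 147 to 143 bases before the start and AGGTCA from 14 to 9 bases before it. The Lep window held TTGCNNAA from 55 to 48 bases before the start. The Cox8b and Otop1 windows held none of these motifs, and the Adipoq window held only the CCAAT box, 3 times, which is left in lower case. Among all 32851 promoters of the same length, AGGTCA was found in 14%, TGACG in 17.8%, TTGCNNAA in 9.56% and CCAAT in 33.8%, and in the 32 promoters of the matched genes they were found in 6, 4, 5 and 11. A match is a run of letters and was not tested as a binding site.

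Depth and tissue make-up were compared first. Counts assigned to genes ran from 23487946 to 32251097 in the aortic libraries and from 17540532 to 30050073 in the mesenteric ones. Levels below are in CPM, counts as a share of a library scaled to a common total after scaling by the trimmed mean of M values (TMM) over all 26 libraries. Sphk1, the deleted gene, ran from 1.78 to 3.43 CPM in the aorta of KO mice against 12.1 to 25.2 CPM in WT AngII mice, and from 2.81 to 4.63 against 9.51 to 17.3 CPM in mesenteric arteries. The summed level of 8 smooth muscle markers lay between 18180 and 42610 CPM in all libraries. In sham mice the 7 endothelial markers summed to 857 to 971 CPM in the aorta and 3534 to 3790 CPM in mesenteric arteries, the 12 skeletal and cardiac muscle markers to 22.6 to 39.6 and 145 to 257 CPM, and the 6 glial and neuronal markers to 7.59 to 9.13 and 307 to 447 CPM. Pancreatic markers summed to at most 6.58 CPM in any aortic library. In mesenteric arteries they ran from 32 to 30270 CPM in sham mice (median 10290). The range was 10.9 to 72360 CPM in WT AngII mice (median 84.0) and 40.4 to 49460 CPM in KO mice (median 729). This load was thus uneven between the mesenteric groups, and its part in their comparisons was not tested. Lymphocyte markers reached 1188 CPM in mesenteric KO replicate 3, 515.2 CPM in mesenteric KO replicate 1 and 343.7 CPM in mesenteric WT AngII replicate 1. Mesothelial markers summed to at most 37.2 CPM in the aorta and 135 CPM in the mesentery, and gut epithelial markers to at most 18.4 and 318 CPM. Liver markers stayed at or under 0.281 CPM in the aorta and 79.2 CPM in the mesentery. Exons of Lipe, Gpd1 and Ebf2 overlap genes on the opposite strand over 15.6%, 13% and 6.12% of their bases, and the labels do not state the strand setting of the counting, so their counts are uncertain. The identifier format differs between the tables of the 2 tissues. Whether they were counted separately is not stated, and an effect of that could not be told apart from tissue.

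Together the 35 genes took 0.295% to 1.36% of assigned counts in aortas of sham mice, 0.329% to 0.924% with AngII and 0.607% to 1.40% in KO mice with AngII. In mesenteric arteries the ranges were 0.218% to 0.505%, 0.228% to 0.439% and 0.248% to 0.727%. The 5 genes of fatty acid synthesis held most of this in the aorta, with means of 0.388%, 0.370% and 0.671% of counts in the 3 groups. The 11 brown and thermogenic genes held 0.0499%, 0.0456% and 0.0586% in the aorta and 0.0150%, 0.0185% and 0.0162% in the mesentery. Per kilobase of merged exon, Scd1, the stearoyl-CoA desaturase, had the highest level of the 35 in every group, with 448, 498 and 906 CPM per kb in the aorta and 96.9, 160 and 207 CPM per kb in the mesentery.

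**Figure D1:**
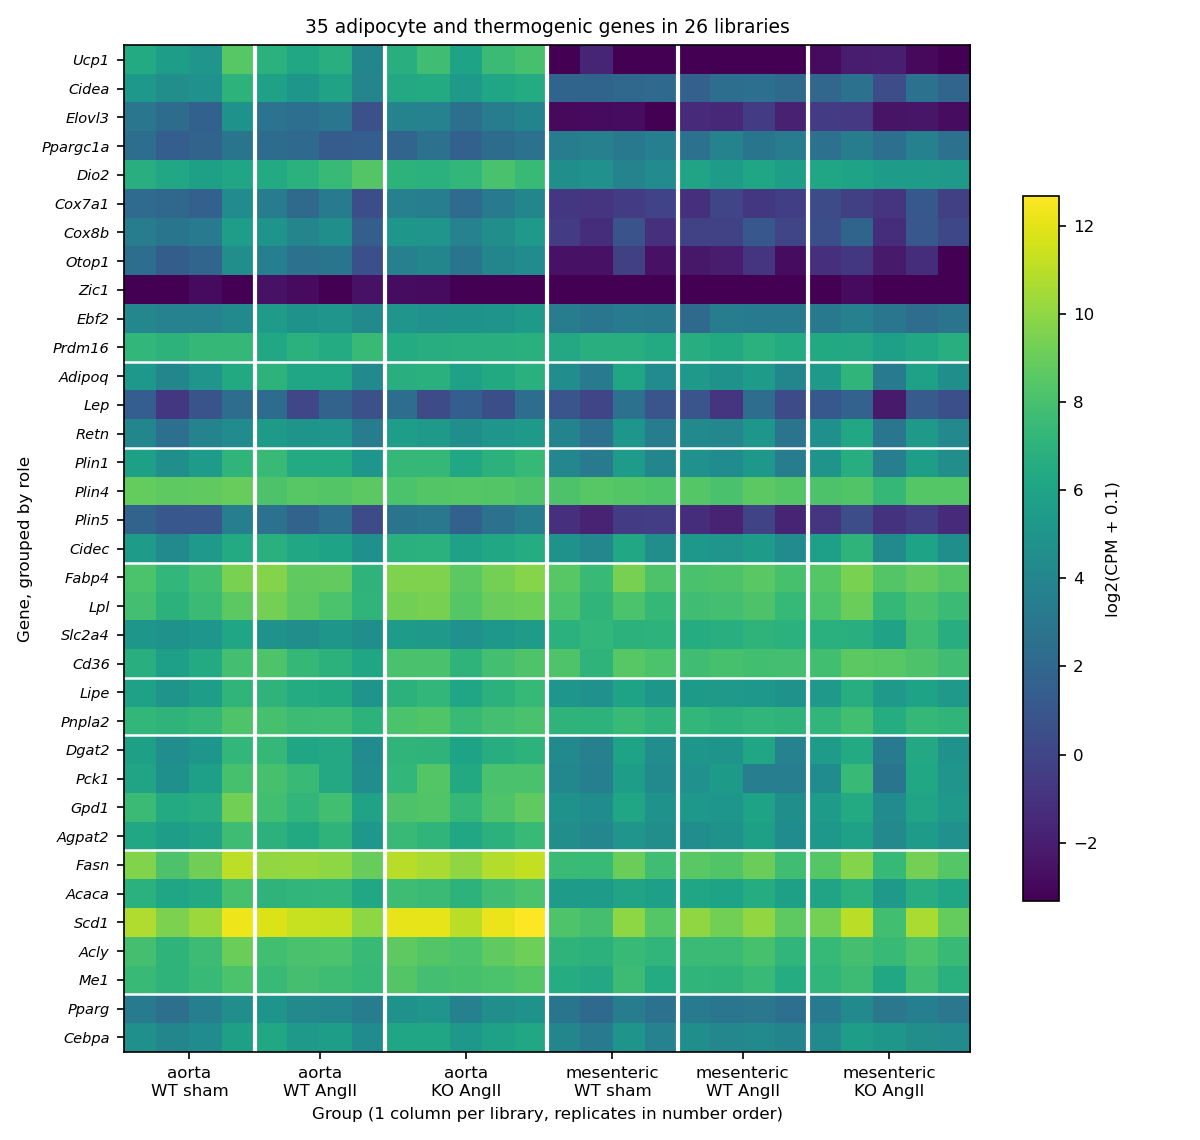
Level of each of the 35 genes (rows, grouped by role) in each of the 26 libraries (columns, grouped by tissue and treatment), as log2(CPM + 0.1) by colour. Dark violet is low and yellow is high. Ucp1, Elovl3 and Otop1 are violet in the mesenteric columns and blue to green in the aortic ones, Zic1 is violet in every column, and aortic sham replicate 4 is brighter than the other 3 sham aortas in most rows.

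The comparison of mesenteric arteries with aorta asks which adipocyte genes differ between the 2 vessel preparations. In sham mice all 10 brown and thermogenic genes that could be tested differed: 9 were lower in mesenteric arteries and Ppargc1a was higher. None of the 3 adipokines passed the test, while 4 of 5 genes of fatty acid synthesis were lower in the mesentery. Of 34 genes tested, 18 were lower and 3 higher in mesenteric arteries by edgeR's quasi-likelihood test with Benjamini-Hochberg adjustment over all genes, against 38.4% of the 18520 genes tested overall (17.7% lower, 20.7% higher). The libraries of the tissues did not overlap for 16 of the 34, against 42% of all genes. The median log2 difference, mesenteric minus aorta, was -0.88 over the 34 genes and 0.02 over all genes.

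Ucp1 was read in every aortic library and almost nowhere in the mesentery. In sham aortas it stood at 88.7, 49.8, 32.1 and 369.9 CPM, and in sham mesenteric arteries at 0, 0.220, 0 and 0 CPM, where the single non-zero library held all 6 counts. With AngII the aortic values were 119, 76.9, 106 and 16.1 CPM and all 4 mesenteric libraries had 0 counts. In KO mice they were 110.3, 219.5, 61.6, 196 and 255 CPM in the aorta and 0.0414, 0.145, 0.159, 0.0322 and 0 CPM in the mesentery. The lowest aortic library thus lay above every mesenteric one in each group. The ratio of aortic to mesenteric means was 2455 in sham mice and 2233 in KO mice. In WT AngII mice Ucp1 was at least 2598-fold higher in the aorta, taking 3 counts over the mesenteric group as the floor.

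The other brown genes followed in order of how far the tissues stood apart. Elovl3, which elongates fatty acids in brown fat, was at 7.65, 4.92, 3.00 and 28.9 CPM in sham aortas and at 0.0343, 0.0367, 0.0452 and 0 CPM in sham mesenteric arteries. With 3 mesenteric counts in all, the ratio of means was 383, with a 95% counting interval of 131 to 1857. Otop1, a proton channel enriched in brown fat, stood at 5.51, 2.53, 3.60 and 23.9 CPM in sham aortas. In sham mesenteric arteries it stood at 0.0686, 0.0734, 0.723 and 0.0752 CPM, and no library overlapped. Its log2 difference was -5.31 ± 0.91 (SE; adjusted p = 5.82e-05, edgeR). Cox8b, a subunit of cytochrome c oxidase, was at 11.1, 7.49, 9.16 and 48.5 CPM in sham aortas and at 0.617, 0.330, 1.58 and 0.338 CPM in the mesentery. Its difference was -4.77 ± 0.80 (adjusted p = 4.81e-05). Cox7a1, another subunit of that enzyme, differed by -3.77 ± 0.67 and the droplet protein Plin5 by -3.4 ± 0.67 on the log2 scale.

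Cidea, a lipid droplet protein of brown adipocytes, was low but present in the mesentery. It stood at 36.2, 23.7, 27.5 and 132.5 CPM in sham aortas and at 3.46, 3.41, 4.07 and 4.33 CPM in sham mesenteric arteries. With AngII the aortic values were 57.5, 35.7, 59.2 and 15.7 CPM against 2.94, 5.31, 5.68 and 4.47 CPM in the mesentery. In KO mice they were 81.7, 86.9, 40.0, 67.8 and 91.2 CPM against 3.72, 6.40, 1.27, 6.09 and 3.60 CPM. Every aortic library was above every mesenteric one. The ratio of means was 14.4 in sham, 9.14 in WT AngII and 17.4 in KO mice, and the log2 differences were -3.85 ± 0.54, -3.18 ± 0.53 and -4.11 ± 0.49 (adjusted p = 4.83e-06, 4.23e-05 and 3.62e-07, edgeR).

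The other brown genes that could be tested, Dio2, Ebf2, Prdm16 and Ppargc1a, showed smaller or opposite differences. Dio2, which converts thyroxine to the active hormone, stood at 103, 78.4, 54.5 and 69.1 CPM in sham aortas and at 25.4, 27.8, 14.0 and 21.0 CPM in sham mesenteric arteries. Every aortic library was above every mesenteric one, with a difference of -1.79 ± 0.35 (adjusted p = 2.37e-04). Ebf2 and Prdm16, transcription factors of brown adipocyte commitment, differed by -0.79 ± 0.26 and -0.69 ± 0.20. Ppargc1a, the coactivator that drives mitochondrial biogenesis, went the other way: it stood at 5.42, 2.69, 3.34 and 7.38 CPM in sham aortas and at 10.5, 12.6, 8.59 and 11.9 CPM in sham mesenteric arteries. No mesenteric library was as low as any aortic one, and the difference was 1.21 ± 0.34 (adjusted p = 0.00751). Zic1, a transcription factor used as a classical brown fat marker, had 0 to 2 counts in every one of the 26 libraries, too few to be tested. Of the brown genes, Cox7a1, Cox8b and Ppargc1a are made in striated muscle too. The sum of its 12 markers was higher in sham mesenteric arteries. There Tnnt2 stood at 90.6 to 184, Acta1 at 12.1 to 16.0, Ckm at 7.23 to 20.9 and Actc1 at 7.87 to 17.2 CPM. Of the 11 muscle markers tested in sham mice, 5 were higher in the mesentery and 1 lower, against 20.7% and 17.7% of all genes. The part of striated muscle in these values was not tested.

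None of the adipokines passed the test between the tissues in sham mice. Adipoq, which encodes adiponectin, stood at 36.6, 16.2, 32.9 and 84.2 CPM in sham aortas and at 22.8, 10.1, 70.5 and 20.8 CPM in sham mesenteric arteries. These ranges overlapped, and the log2 difference was -0.46 with a 95% interval of -1.84 to 0.92 (adjusted p = 0.624, edgeR). Lep, which encodes leptin, was at 2.62, 0.492, 1.71 and 5.26 CPM in sham aortas and at 1.75, 0.917, 6.28 and 1.77 CPM in the mesentery. These also overlapped, with a difference of 0.08 and an interval of -1.59 to 1.75. Retn, which encodes resistin, differed by 0.21 ± 0.58. None of the 3 had an unadjusted p under 0.05, and DESeq2 called none of them, but intervals of this width leave room for a difference of more than 2-fold.

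Fatty acid synthesis was read higher in sham aortas, but most of its calls rest on 1 library. Fasn, the fatty acid synthase, stood at 801.7, 301.8, 591.8 and 2220 CPM in sham aortas and at 190.1, 178, 539 and 219 CPM in sham mesenteric arteries. The ranges overlapped, since mesenteric replicate 3 lay above the lowest aortic library, and the difference was -1.80 ± 0.53 (adjusted p = 0.00918). Acaca, the acetyl-CoA carboxylase, differed by -1.34 ± 0.36, Scd1 by -2.21 ± 0.65 and Acly, the ATP citrate lyase, by -0.94 ± 0.30, while Me1, the malic enzyme that supplies NADPH, was at -0.76 ± 0.31 (adjusted p = 0.0575). Without aortic sham replicate 4 the calls of Fasn, Scd1 and Acly were lost (adjusted p = 0.0966, 0.0789 and 0.170, edgeR), and that of Acaca was kept. Of the genes of triglyceride synthesis and glyceroneogenesis, Gpd1, which makes glycerol 3-phosphate, and Agpat2, an acyltransferase, were lower in the mesentery, with differences of -2.80 ± 0.58 and -2.06 ± 0.46. Dgat2, which makes the final acyl transfer, and Pck1, which starts glyceroneogenesis, were at -1.21 ± 0.69 and -2.02 ± 0.87 and did not pass. Among droplet proteins Plin1 and Plin4 were lower in the mesentery, with differences of -1.64 ± 0.63 and -0.49 ± 0.17 and Cidec was at -0.43 ± 0.55. The lipases Lipe and Pnpla2 were at -0.82 ± 0.43 and -0.36 ± 0.25, and neither passed.

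Of the 4 uptake genes, Slc2a4 and Cd36 were higher in the mesentery. Slc2a4, the insulin-responsive glucose transporter, stood at 34.8, 29.7, 33.2 and 71.3 CPM in sham aortas and at 119.6, 153, 122 and 131.7 CPM in sham mesenteric arteries. Every mesenteric library was above every aortic one, by a difference of 1.64 ± 0.29 (adjusted p = 9.13e-05). Cd36, a fatty acid translocase, was at 104, 52.9, 87.2 and 241 CPM in the aorta and at 304.8, 134, 362 and 278 CPM in the mesentery. These ranges overlapped, and the difference was 1.15 ± 0.42 (adjusted p = 0.0323). The Cd36 call was lost with no filter and when any 1 of 6 of the 8 sham libraries was left out (aortic 1, 2 and 3, mesenteric 1, 3 and 4; adjusted p 0.0564 to 0.106, edgeR). Fabp4, a fatty acid binding protein, and Lpl, the lipoprotein lipase, were at 0.16 ± 0.46 and -0.16 ± 0.41. Slc2a4 is also made in striated muscle, Cd36 in striated muscle and capillary endothelium, and Fabp4 in capillary endothelium. In sham mice both marker sums were higher in mesenteric arteries. All 7 endothelial markers and 5 of 11 tested muscle markers were called higher there, and 1 muscle marker was lower. Of all genes, 20.7% were higher and 17.7% lower. The part of these tissues in the values was not tested.

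**Figure D2:**
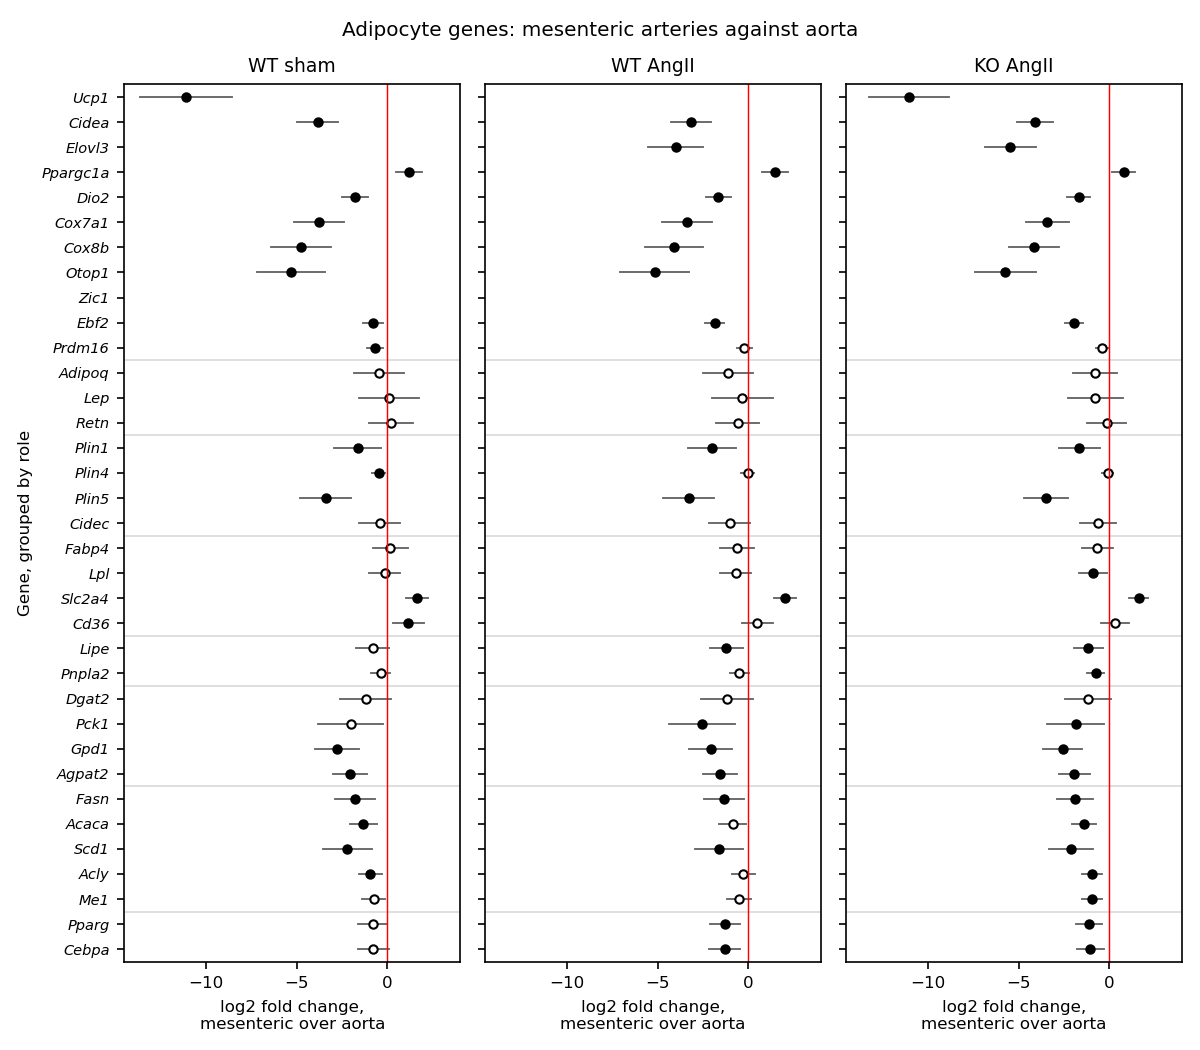
Log2 fold change of mesenteric arteries over aorta for each gene (rows, grouped by role) in WT sham, WT AngII and KO AngII mice, with 95% confidence intervals from edgeR; filled points passed an adjusted p of 0.05, open points did not, and genes with 3 or fewer counts over the mesenteric group are left out. Most brown genes sit to the left in all 3 panels, Slc2a4 and Ppargc1a to the right, and the intervals of the adipokines cross 0.

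The same contrast was read in the AngII groups, whose libraries are separate from the sham ones. In WT AngII mice 18 of 34 genes were lower and 2 higher in mesenteric arteries, against 40.4% of all genes (19.1% lower, 21.3% higher). The tissues did not overlap for 12 of the 34, against 34.3% of all genes, and the median difference was -1.26. In KO mice 23 were lower and 2 higher, against 47.6% of all genes (20.8% lower, 26.8% higher). There 16 did not overlap, against 32.5%, and the median difference was -1.17. Among the 10 brown genes 8 were lower and Ppargc1a higher in both, and Prdm16 did not pass, at -0.23 ± 0.20 and -0.38 ± 0.18. The Ppargc1a call in KO mice was lost with no filter and without any 1 of aortic replicates 1, 3 and 4 or mesenteric replicates 2 and 4 (adjusted p 0.0567 to 0.125, edgeR). The ratio of aortic to mesenteric means in sham, WT AngII and KO mice was 26.6, 17.2 and 17.8 for Cox8b, 37.8, 38.1 and 55.0 for Otop1 and 13.7, 10.7 and 10.8 for Cox7a1. It was 10.6, 9.90 and 11.5 for Plin5 and 3.46, 3.15 and 3.22 for Dio2. For Elovl3 it was 16.5 and 44.4 in WT AngII and KO mice.

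Pparg, the nuclear receptor that drives adipocyte differentiation, and Cebpa, its partner, were lower in the mesentery in both AngII groups. Pparg differed by -1.29 ± 0.39 in WT and -1.15 ± 0.35 in KO mice, and Cebpa by -1.31 ± 0.41 and -1.06 ± 0.36. In sham mice they were at -0.82 ± 0.39 and -0.77 ± 0.41 and did not pass. Lipe differed by -1.22 ± 0.44 and -1.16 ± 0.39, and Pnpla2 passed in KO mice with -0.75 ± 0.23. All 5 genes of fatty acid synthesis were lower in KO mice, from -2.13 for Scd1 to -0.94 for Acly, against 2 of 5 in WT AngII mice. Lpl was lower in KO mice, at -0.91 ± 0.37, and Pck1 in both AngII groups, at -2.57 ± 0.88 and -1.86 ± 0.76. In KO mice the calls of Lpl and Pck1 were each lost in 11 alternatives (adjusted p 0.0633 to 0.128 and 0.0532 to 0.114, edgeR). These included library size alone, no filter, and mesenteric KO replicate 3 and WT AngII replicate 1 left out together. The other 8 were KO libraries left out singly, all of the 10 but aortic replicate 3 and mesenteric replicate 2. No adipokine passed in either group: Adipoq was at -1.13 ± 0.67 and -0.79 ± 0.59, with no unadjusted p under 0.05 among the 3 genes and none called by DESeq2. Adipoq did pass as lower in the mesentery of KO mice with the replicate block and without mesenteric KO replicate 2. Without aortic WT AngII replicate 1 the number of genes called in WT AngII mice fell from 20 to 13, and Cebpa, Fasn, Lipe, Pck1, Plin1, Pparg and Scd1 were lost. Without aortic sham replicate 4, the library with the highest Ucp1, the number called in sham mice was 15 in place of 21, and Acly, Ebf2, Fasn, Plin1, Plin4 and Scd1 were lost.

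**Figure D3:**
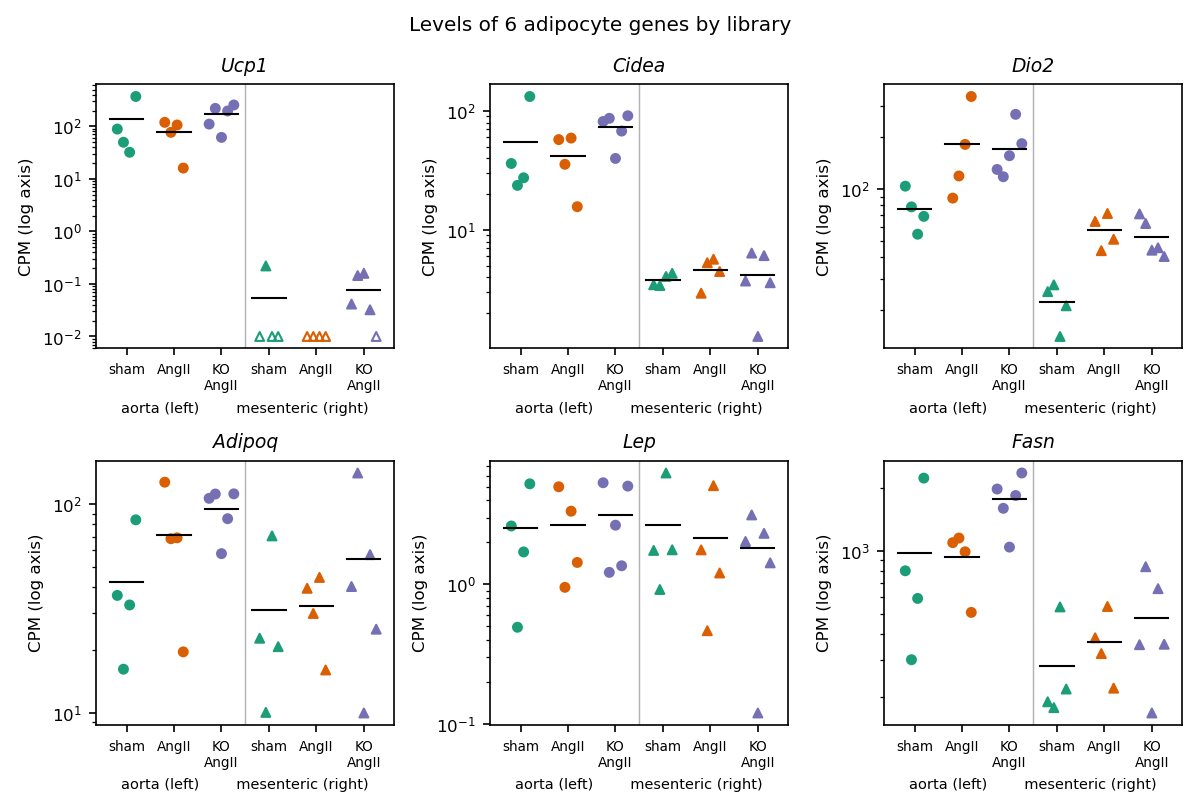
CPM of Ucp1, Cidea, Dio2, Adipoq, Lep and Fasn in each library (points, log axis), by group, with aortic groups left of the grey line and mesenteric groups right of it; black bars are group means and open points at the bottom are libraries with 0 counts. Ucp1 and Cidea separate the tissues in all groups, Adipoq and Lep overlap, and Dio2 is higher with AngII in both tissues.

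The ratio of Ucp1 to Adipoq sets a brown adipocyte transcript against one that both fat types make, within each library. In sham aortas it was 2.43, 3.08, 0.98 and 4.40, in WT AngII aortas 0.934, 1.13, 1.54 and 0.820, and in KO aortas 1.03, 1.96, 1.06, 2.30 and 2.28. Sham and WT AngII aortas overlapped, because sham replicate 3 was as low as the AngII libraries. On the log2 scale (prior count 2) the means were 1.25 ± 0.93 (SD, n = 4), 0.10 ± 0.39 (n = 4) and 0.70 ± 0.58 (n = 5). AngII against sham differed by -1.15 (exact two-sided permutation p = 0.0857, 0.15 adjusted over 7 comparisons), and KO against WT under AngII by 0.60 (exact permutation p = 0.127, adjusted 0.178). Neither difference passed. Mesenteric arteries were lower than aorta by -9.08, -8.76 and -8.82 in sham, WT AngII and KO mice, with no overlap. The exact permutation p-values of 0.0286, 0.0286 and 0.00794 are the smallest that 4 against 4 and 5 against 5 libraries allow, and adjusted they were 0.0667, 0.0667 and 0.0556. Since mesenteric Ucp1 was at or near 0, those 3 differences are set in part by the prior count. In mesenteric arteries the differences of -0.83 with AngII and 0.53 with KO had adjusted p-values of 0.667 and 0.698 by the same exact permutation test.

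Within a tissue the libraries varied together. Across the 13 aortic libraries, 31 of the 33 other genes tested were correlated with Adipoq on the log2 CPM scale (Pearson, permutation test with 100000 resamples, adjusted over 63 relations in both tissues; 29 by Spearman). The correlation was over 0.9 for 16 of them, with a median of 0.896. Plin1, the coat protein of the adipocyte droplet, was closest (r = 0.99, rho = 0.99), followed by Cidec (r = 0.99, rho = 0.93) and Fabp4 (r = 0.99, rho = 0.98), each with a permutation p of 1e-05, the smallest that this number of resamples can give. After leaving out the 2 libraries farthest from the median of Adipoq these 3 stood at 0.98, 0.97 and 0.98, and within groups at 0.99, 0.98 and 0.99. Lep and Ppargc1a, which passed at 0.62 and 0.61, fell to 0.34 and 0.37 without those 2 libraries, so their relations rest on them. Lep did not pass by Spearman (rho = 0.51, adjusted permutation p = 0.0947). All values share the library and its scaling, and WT AngII replicate 4 and sham replicate 2 were the lowest for Adipoq, at 19.6 and 16.2 CPM.

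Most brown genes were correlated with Adipoq in the aorta. Ucp1 had r = 0.79 and rho = 0.84 (permutation p = 0.00112 and 6.4e-04, adjusted 0.00172 and 0.00122), and 0.70 without the 2 farthest libraries. Cidea was at 0.86, Cox8b and Otop1 at 0.91 and Elovl3 at 0.73 by Pearson. Dio2 and Slc2a4 were the 2 that did not pass, at 0.03 (permutation p = 0.919) and 0.46 (permutation p = 0.115). Within groups they stood at -0.61 and 0.70. Prdm16 and Plin4 ran against it, at -0.70 and -0.67 (adjusted permutation p = 0.0114 and 0.0154). Within groups Prdm16 and Plin4 were at -0.54 and -0.42.

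In the mesentery 22 of 30 genes were correlated with Adipoq (21 by Spearman), 11 of them over 0.9, and the median was 0.85. Plin1 was again closest, at 0.98. Gpd1 stood at 0.96 and Cox8b, whose counts were low there, at 0.90. Cidea was at 0.65 and fell to 0.34 without the 2 farthest libraries, so that relation rests on them. Ppargc1a (0.06), Ebf2 (0.15), Prdm16 (0.18), Dio2 (0.20), Slc2a4 (0.26), Cox7a1 (0.37), Plin4 (0.40) and Cd36 (0.47) did not pass. Mesenteric Adipoq ran from 9.99 CPM in KO replicate 3 to 141 CPM in KO replicate 2.

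**Figure D4:**
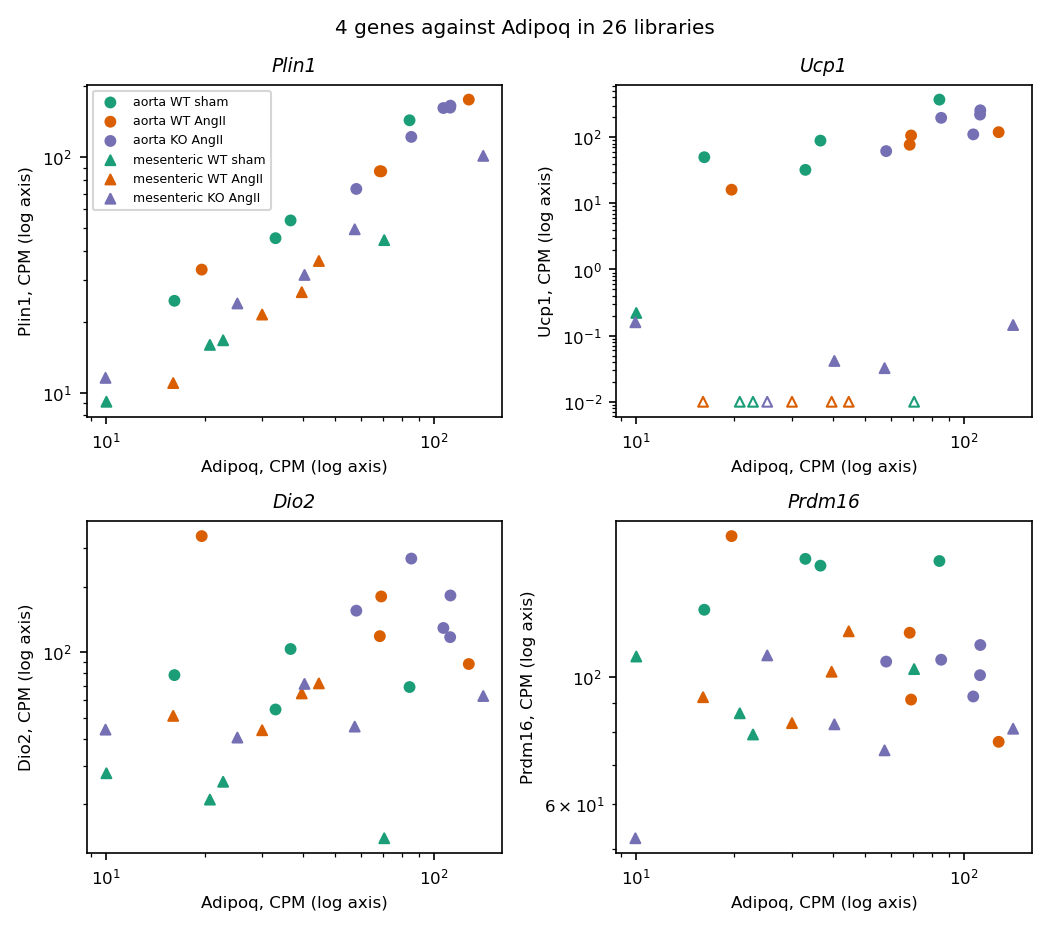
CPM of 4 genes against CPM of Adipoq in the 26 libraries (both axes log, 1 point per library, colour and shape by group). The genes are Plin1, Ucp1, Dio2 and Prdm16. For Ucp1 every aortic point lies above every mesenteric one. For Dio2 the levels of the tissues overlap across groups. For Prdm16 the ratio of aortic to mesenteric means was 1.62, 1.17 and 1.30 in sham, WT AngII and KO mice. Plin1 rises with Adipoq in both tissues, and in the aorta Ucp1 rises and Prdm16 falls with it.

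AngII against sham in the aorta asks whether the pressor infusion changed adipocyte genes. Of 34 genes tested, Ebf2 and Dio2 rose and Plin4 fell by edgeR, against 25.5% of the 16863 genes tested (14.7% higher, 10.8% lower). The number whose groups did not overlap was 1 of 34, against 23.9% of all genes. Of the rest, 16 were higher and 15 lower without passing, and the median log2 fold change was 0.05. That split rests on single libraries: without sham replicate 4 it was 29 higher and 5 lower of all 34, with a median of 0.74, without sham replicate 2 it was 14 and 20 (-0.20), and without AngII replicate 1 it was 11 and 23 (-0.14).

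Ebf2 stood at 17.1, 13.5, 13.3 and 19.6 CPM in sham aortas and at 44.7, 29.6, 32.7 and 19.3 CPM with AngII. Only AngII replicate 4 lay within the sham range, and the log2 fold change was 0.98 ± 0.21 (adjusted p = 0.00436, edgeR). Ebf2 is also made in mesenchymal progenitors of fat. The 6 fibroblast markers summed to 6821 to 8268 CPM in sham aortas and 21350 to 50180 CPM with AngII, and the 7 macrophage markers to 570 to 691 and 771 to 1001 CPM, and their part in the rise was not tested. Dio2, at 54.5 to 103 CPM in sham aortas, stood at 88.1, 118, 180 and 340.7 CPM with AngII. The groups overlapped at AngII replicate 1, and the fold change was 1.23 ± 0.40 (adjusted p = 0.0437). Plin4, a droplet coat protein, was at 474, 427, 439 and 489.5 CPM in sham aortas and at 293, 367, 335 and 408 CPM with AngII. Every AngII library was below every sham one, with a change of -0.40 ± 0.11 (adjusted p = 0.0138). The Dio2 call was lost in 8 alternatives, with adjusted p from 0.0511 to 0.129 by edgeR: with library size alone as the scaling (1.09), with no filter on low counts, with the replicate block, and without any 1 of AngII replicates 3 and 4 (0.74 without the latter) or sham replicates 2, 3 and 4. With library size alone, Prdm16 passed as lower (-0.54, adjusted p = 0.0353).

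The core adipocyte genes did not pass in either direction. Adipoq went from 36.6, 16.2, 32.9 and 84.2 CPM to 127.5, 68.3, 69.0 and 19.6 CPM, which overlapped, with a log2 fold change of 0.74 and a 95% interval of -0.47 to 1.95 (adjusted p = 0.365, edgeR). Lep, at 5.00, 0.951, 3.34 and 1.43 CPM with AngII, was at 0.08 ± 0.70 and Retn at 1.03 ± 0.42 (adjusted p = 0.0974). Fasn, at 1092, 1149, 988 and 507.6 CPM with AngII, was at -0.07 ± 0.51. Ucp1 was at -0.77 with an interval of -2.52 to 0.99 (adjusted p = 0.529) and Cidea at -0.39 ± 0.57. Of the 10 brown genes 8 were lower with AngII, with a median of -0.39, and none of these 8 passed. Sham replicate 4 held 369.9 CPM of Ucp1 against 32.1 to 88.7 CPM in the other 3. Without it the values of Ucp1, Cidea and Fasn turned to 0.45, 0.50 and 0.70, so their direction rests on that library.

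In mesenteric arteries 1 of 31 tested genes changed with AngII, against 0.183% of 17513 genes, 8.82% of which had groups that did not overlap in either direction, and Ucp1, Elovl3, Otop1 and Zic1 were too low to be tested. Dio2 rose from 25.4, 27.8, 14.0 and 21.0 CPM to 64.6, 43.8, 71.8 and 50.9 CPM. All AngII libraries were above all sham libraries, and the log2 fold change was 1.39 ± 0.24, with an interval of 0.86 to 1.91 (adjusted p = 0.0440, edgeR). The call was lost with library size alone as the scaling (adjusted p = 0.0714), with no filter on low counts (0.0882) and when any 1 of the 8 WT libraries was left out, where the fold change ran from 1.22 to 1.51. The other genes ran from -0.33 to 0.72, with 19 higher and 11 lower. Over all tested genes the split was 28 higher and 4 lower without sham replicate 3 (median 0.52), 13 and 20 without sham replicate 2 (-0.07) and 13 and 18 without AngII replicate 3 (-0.02), against 20 and 11 (0.07) with every library. Pancreatic marker sums had medians of 10290 CPM in the sham and 84.0 CPM in the AngII group, and their part was not tested. Adipoq was at 0.06 ± 0.72 and stood at 39.5, 29.9, 44.6 and 16.1 CPM with AngII, within the sham range. Lep stood at 1.77, 0.464, 5.10 and 1.21 CPM and Fasn at 384, 323, 541.6 and 221 CPM, with changes of -0.33 ± 0.85 and 0.38 ± 0.49.

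Dio2 was higher with AngII in both tissues, and the difference of the 2 changes was 0.14 ± 0.47 (95% interval -0.85 to 1.12; adjusted p = 0.945, edgeR interaction). Tested as such differences, none of the 34 genes passed, against 2.34% of all genes (0.68% higher, 1.66% lower). An unadjusted p under 0.05 was found for 2, Elovl3 and Ebf2, and DESeq2 called Elovl3 (4.58, adjusted p = 0.0099). Elovl3 in mesenteric arteries went from 3 counts over the sham group to 32 counts over the AngII group, and in the aorta from 11.1 ± 12.0 to 5.31 ± 2.69 CPM (SD, n = 4). The difference of the changes was 4.37 ± 1.33 (adjusted p = 0.0853). Ebf2, which rose in the aorta, was at -0.10 ± 0.28 in the mesentery, and its difference was -1.08 ± 0.37 (adjusted p = 0.128).

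KO against WT under AngII asks whether loss of Sphk1 in smooth muscle changed the adipocyte genes. In the aorta none of the 34 passed by edgeR, against 0.00593% of all genes, which is 1 gene, and the lowest adjusted p among them was 0.981. DESeq2 also called none of them, and 2 had an unadjusted p under 0.05, the lipogenic enzymes Me1 and Acly. No gene's groups were free of overlap, against 0.955% of all genes. Of the values, 30 of 34 were higher in KO aortas, with a median of 0.55 against -0.01 for all genes. That median was 0.28 without WT AngII replicate 4 and 0.87 without WT AngII replicate 1, with 31 of 34 higher in both. Since most of these genes vary together between libraries, 30 genes are not 30 separate observations.

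Fasn stood at 1969, 1593, 1040, 1834 and 2348 CPM in KO aortas, all but replicate 3 above the WT AngII libraries. Its change was 0.91 ± 0.49. Acly was at 0.77 ± 0.34, Me1 at 0.54 ± 0.19, Acaca at 0.69 ± 0.37 and Scd1 at 0.86 ± 0.55, so that all 5 genes of fatty acid synthesis were higher, with a median of 0.77. Of the 10 brown genes 7 were higher, with a median of 0.68: Ucp1 was at 1.08 ± 0.77, Cidea at 0.80 ± 0.55, Elovl3 at 1.16 ± 0.65 and Otop1 at 1.10 ± 0.69. Adipoq, at 107, 111.9, 58.0, 85.2 and 112 CPM, overlapped the WT AngII range and was at 0.41 ± 0.52. Lep was at 5.35, 1.22, 2.65, 1.36 and 5.06 CPM and 0.20 ± 0.67. Ebf2 stood at 32.1, 27.7, 29.6, 30.4 and 38.3 CPM in KO aortas, within the WT AngII range (adjusted p = 0.999). Dio2 stood at 129, 117, 155, 269 and 181.9 CPM, also within that range, and was at -0.09 ± 0.38. WT AngII replicate 4 was the lowest of the 4 for Ucp1, Cidea, Adipoq and Fasn.

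In mesenteric arteries none of the 31 tested genes passed for KO against WT under AngII by edgeR, against 0.00571% of all genes, again 1 gene. The lowest adjusted p was 0.798, no gene had an unadjusted p under 0.05, DESeq2 called none, and 0 were free of overlap, against 1.69% of all genes. There 24 of 31 were higher in KO mice, with a median of 0.37 against 0.02 for all genes. Without KO replicate 2 it was 19 higher and 12 lower with a median of 0.07, without KO replicate 4 the median was 0.23, without WT AngII replicate 4 0.19 and without WT AngII replicate 3 0.59. Adipoq, at 40.3, 141, 9.99, 57.3 and 25.2 CPM, was at 0.75 ± 0.69, and Pck1 had the highest value, 1.42 ± 0.79. Lep stood at 2.03, 3.14, 0.119, 2.32 and 1.42 CPM and Fasn at 355.9, 838, 168, 658.8 and 358 CPM. KO replicate 2 was the highest of the 5 for all 3 and replicate 3 the lowest. The difference between tissues in the KO effect passed for none of the 34 genes by edgeR or DESeq2, nor did any have an unadjusted p under 0.05, against 0% of all genes called by edgeR. Both KO comparisons use the WT AngII libraries that the AngII comparisons use, so their values are not independent of those.

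**Figure D5:**
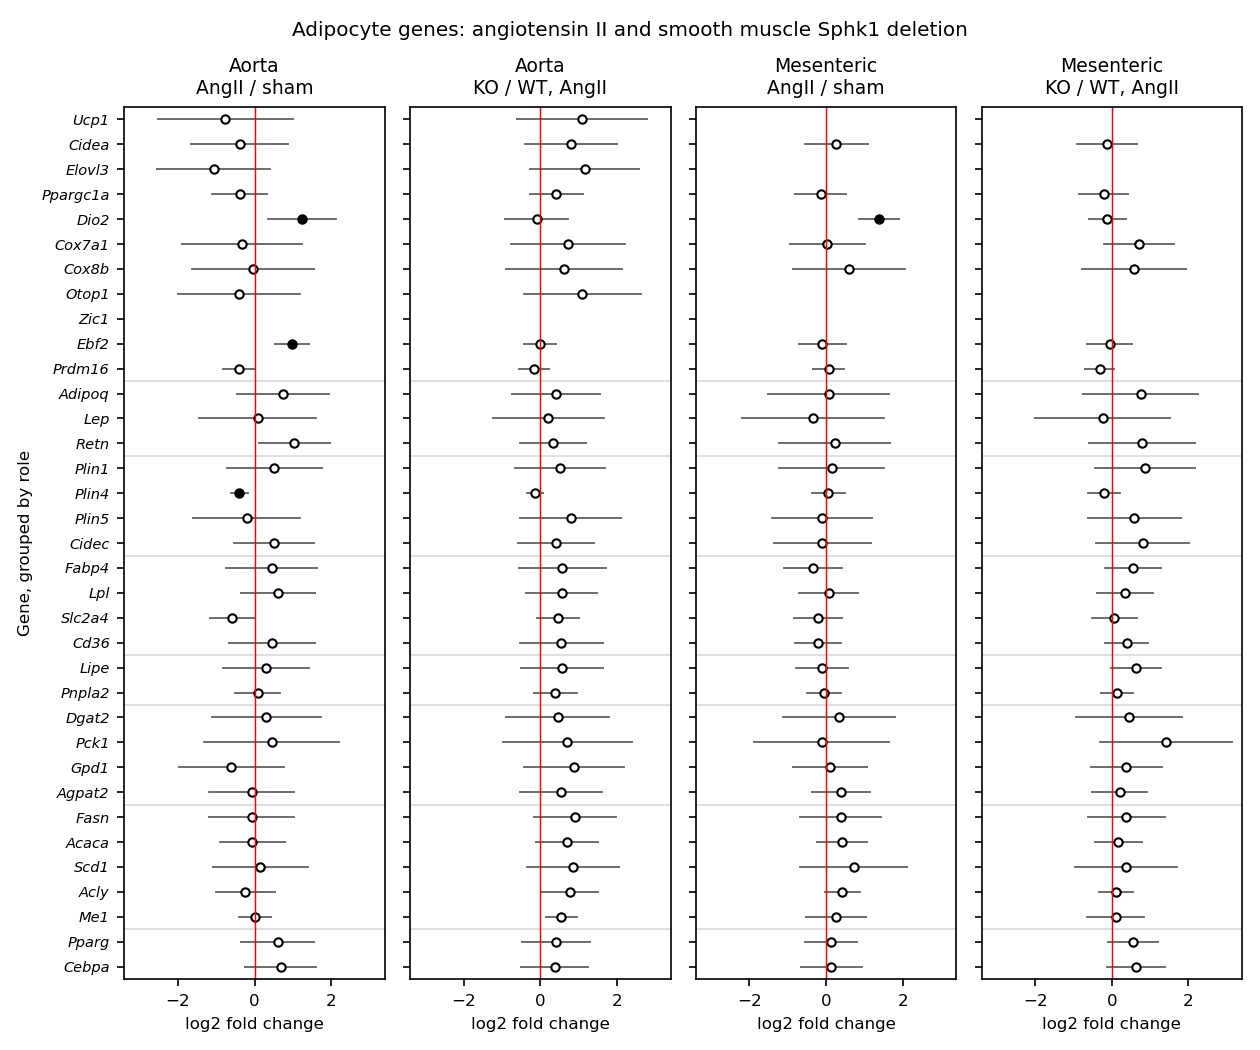
Log2 fold change of each gene (rows, grouped by role) for AngII over sham in WT mice and for KO over WT under AngII, in aorta and mesenteric arteries, with 95% confidence intervals from edgeR; filled points passed an adjusted p of 0.05. Filled points are Ebf2, Dio2 and Plin4 in aortas with AngII and Dio2 in mesenteric arteries with AngII, and both KO panels hold open points only, most of them right of 0.

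Other adipocyte genes were read from 7 further lists, 2 of which share Nnat. Between tissues 64.8% of their 88 tested entries passed in sham mice, 45.5% in WT AngII and 72.7% in KO mice, against 38.4%, 40.4% and 47.6% of all genes. In sham mice 20.7% of all genes were higher and 17.7% lower in the mesentery, beside which each list's count is to be read. In sham mice, of 9 genes that mark white depots and their origin, 8 were higher and 1 lower in mesenteric arteries, with a median difference of 2.28. Wt1 of this list is also a mesothelial marker, and its Hoxc genes mark position. The mesothelial sum was 0.643 to 18.3 CPM in sham aortas and 3.23 to 34.5 CPM in sham mesenteric arteries. The part of cells other than white adipocytes in these values was not tested. Tcf21, a transcription factor of visceral white preadipocytes, stood at 10.6 ± 2.65 CPM against 0.634 ± 0.139 CPM in the aorta (SD, n = 4), a difference of 4.05 ± 0.37. Mest, which marks adipocyte enlargement, differed by 2.28 ± 0.38 and the positional gene Hoxc8 by 1.83 ± 0.37. Of 21 brown and oxidative genes 4 were higher and 12 lower in the mesentery, led by Gk, the glycerol kinase (-1.33 ± 0.12), and Acot11, a thioesterase (-1.19 ± 0.15). The numbers in WT AngII mice were 1 higher and 7 lower, and in KO mice 2 and 12. Of 15 lipogenic regulators and enzymes 1 was higher and 8 lower, among them Mlxipl, the carbohydrate response factor (-2.75 ± 0.49), and Elovl6 (-1.97 ± 0.48), while Elovl5 was higher (0.63 ± 0.09). In WT AngII mice 1 and 1 passed, and in KO mice 1 and 12.

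Of 9 further adipokines and secreted proteins 3 were higher and 2 lower in sham mesenteric arteries, where Sfrp5, a Wnt antagonist, stood at 111 ± 27.2 CPM against 0.380 ± 0.102 CPM in the aorta. Rbp4, the retinol carrier, was at 11 ± 6.36 CPM against 119 ± 15.0 CPM, a difference of -3.44 ± 0.35, and Nrg4, secreted by brown fat, was at -2.42 ± 0.64. Of 10 genes of lipolysis and droplets 3 were lower and none higher, of 12 genes of insulin and beige signalling 3 were higher and 4 lower, and of 12 progenitor genes 4 were higher and 4 lower. With AngII in the aorta, 15 entries of the 7 lists passed, 10 higher and 5 lower, out of 85, which is 17.6% against 25.5% of all genes. Cfd, the adipokine adipsin, rose from 146 ± 63.0 to 374 ± 183 CPM (1.35 ± 0.45, adjusted p = 0.0469), Abhd5, the coactivator of the triglyceride lipase Pnpla2, rose by 0.61 ± 0.11, and Adra2a, an antilipolytic receptor, fell by 2.04 on the log2 scale. None of the 15 lipogenic genes passed there, with 0 at an unadjusted p under 0.05 and 0 by DESeq2. In both KO comparisons and in AngII against sham in the mesentery no entry of these lists passed by edgeR or DESeq2, and 3, 1 and 4 had an unadjusted p under 0.05.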

How the data were processed

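The deposited files hold raw counts per gene, made by the authors with cutadapt, HISAT2 and HTSeq on GRCm39, per the submitters' processing notes. Versions, gene annotation and strand setting are not given in the sources used here. RNA was made into directional libraries and sequenced in pairs, per the labels' protocols. HTSeq rows that name no gene were left out: of all counts in a file, reads in no feature were 6.64% to 11.1%, aligned at several places 4.82% to 13% and not aligned 0.57% to 14.7%. Reads not aligned were 11.4%, 14.7% and 14.2% in mesenteric KO replicates 2, 3 and 4 and 12.0% in mesenteric WT AngII replicate 1. In every other library they were at most 2.52%. Groups were taken from the labels, whose protocols give 4, 4 and 5 mice a group; p-values measure the spread between these libraries.

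The 35 genes, their roles and all gene and marker lists were chosen with earlier results of these data known. Values in every library are given for Ucp1, Cidea, Adipoq, Lep and Fasn. They are also given for up to 4 called genes per direction and comparison with the smallest adjusted p, except between tissues in the AngII groups. There other called genes are given by ratio, fold change or count. From the related lists, up to 3 called genes with the smallest adjusted p are named.

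Tests used edgeR 4.0.16 in R 4.3.3 (filterByExpr, TMM, robust quasi-likelihood, Benjamini-Hochberg over all genes, threshold 0.05): 1 fit of 13 libraries per tissue, and 1 fit of all 26 for tissue contrasts and interactions. The common dispersion, a measure of spread between libraries, was 0.0286 in the aortic, 0.127 in the mesenteric and 0.0804 in the joint fit. In the joint fit both tissues share the spread of a gene, and standard errors between tissues rest on that. The fits were tested on simulated data. Log2 CPM used a prior count of 2. Exact permutation and correlation tests used scipy 1.17.1, and figures matplotlib 3.10.9. Replicates of a group differed by more than sampling noise (chi-square per degree of freedom of 9.09 or more in all pairs). Alternatives were DESeq2 1.42.0, its size factors in edgeR, library size alone, and no filter or at least 10 counts in every library of a group. Further ones were a replicate block, 2 mesenteric libraries left out together, each library left out, and prior counts of 0.5 and 8. The 2 libraries, KO replicate 3 and WT AngII replicate 1, had the highest lymphocyte markers of their groups. Mesenteric KO replicate 1, at 515.2 CPM of these markers, was kept. Exon lengths came from GENCODE on GRCm38.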

Additional observations from a re-analysis of the deposited data

Results flagged for a closer look

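Among the 14 genes whose values are given by library, 80 groups of 4 or 5 libraries were searched for a library far from the others on the log2 CPM scale. In 4 groups 1 was found, which is no more than the share of about 5% that chance alone gives. In mesenteric WT AngII mice Ebf2 was at 4.44 CPM in replicate 1 against 9.54 to 10.6 CPM in the other 3. In mesenteric KO mice replicate 3 was low for 2 genes: Lep was at 0.119 CPM against 1.42 to 3.14 CPM in the other 4, and Plin4 at 162 CPM against 290.2 to 356 CPM. These are the 2 libraries with the highest lymphocyte marker sums of their groups, 343.7 and 1188 CPM. Both also had many reads not aligned, 12.0% and 14.7%, as did mesenteric KO replicates 2 and 4, at 11.4% and 14.2%. The part of lymphocytes or of alignment in the low values was not tested. In mesenteric sham mice Otop1 was at 0.723 CPM in replicate 3 against 0.0686 to 0.0752 CPM in the other 3, and that replicate also had the highest Adipoq of its group, at 70.5 CPM. Its pancreatic marker sum, 32 CPM, was the lowest of the group, and the part of that was not tested.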

How the results depend on the processing

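Ebf2 and Plin4 with AngII in the aorta passed in every alternative, as did 14 of 21 calls between tissues in sham, 13 of 20 in WT AngII and 20 of 25 in KO mice, among them Ucp1, Cidea, Elovl3, Cox7a1, Cox8b, Otop1, Plin5, Dio2 and Slc2a4 in all 3. Beside those named in the results, the calls lost most often were Fasn and Scd1 (9 alternatives each) and Lipe (7) in WT AngII and Plin1 (7) and Plin4 (5) in sham mice. With AngII in the mesentery the number called was 0 with library size alone, with no filter, with the replicate block and with 2 libraries left out. Leaving out each library gave 0 to 0 there, 2 to 4 with AngII in the aorta, 15 to 23, 13 to 22 and 22 to 26 between tissues in sham, WT AngII and KO mice, and 0 to 1 for the tissue difference of the AngII change, where DESeq2 called 1.

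Signs turned in values that had not passed. With AngII in the aorta, leaving out libraries gave -0.64 to 0.50 for Cidea, -0.38 to 0.70 for Fasn and -1.09 to 0.45 for Ucp1, each highest without sham replicate 4, and Fasn was 0.13 without AngII replicate 4. Between tissues in sham mice Adipoq was 0.089 without aortic replicate 4, and Lep was -0.26 and -0.07 without aortic replicates 2 and 3 and -0.77 without mesenteric replicate 3. In WT AngII mice Lep was 0.16 without aortic replicate 1 and 0.0094 without mesenteric replicate 2. The log2 ratio of Ucp1 to Adipoq ran, over libraries left out, from -1.51 to 0.0852 with AngII and from -0.146 to 0.84 with KO in the mesentery, and the latter was -0.034 with a prior count of 8. For the other 5 comparisons of that ratio no sign turned. Causes were not tested.

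Same-numbered libraries correlated between -0.289 and 0.102 in the aorta, -0.265 and 0.343 in the mesentery and -0.118 and 0.133 across tissues, so the numbers were not used to pair libraries; whether tissues came from the same mice is not stated. With the replicate block the numbers called were 2 with AngII in the aorta and 22, 21 and 27 between tissues, and Fasn with AngII in the aorta was 0.21. Adipoq passed between tissues in KO mice with that block (-1.25, adjusted p = 0.0331, edgeR) and without mesenteric KO replicate 2 (-1.51, adjusted p = 0.0386).

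Over all genes, AngII in the mesentery gave 32 calls, 288 by DESeq2, 15 with library size alone, 8 with the replicate block and 8 to 19 with a library left out. KO gave 1 in the aorta, 6 by DESeq2 and 3 with the block, and 1 in the mesentery, 0 with library size alone, with the block or without the 2 libraries. The tissue difference of the AngII change gave 434 calls, 873 by DESeq2, 272 with no filter, 190 with the block and 227 to 628 with a library left out; that of the KO effect gave 0, 749 at an unadjusted p under 0.05 and 15 by DESeq2. Library size alone moved the median of all genes by -0.125 with AngII in the aorta (1747 higher and 3729 lower, against 2475 and 1826), and by 0.128 and 0.137 between tissues in WT AngII (5114 and 2471, against 3939 and 3544) and KO mice (6715 and 2648, against 4955 and 3857). For the tissue difference of the AngII change the split was then 188 and 183, against 126 and 308. Depth limits Ucp1, Elovl3, Otop1 and Zic1 in the mesentery.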
